A study of Caenorhabditis elegans with 4 samples.

Results

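The genes described here are 38 genes of *Caenorhabditis elegans* that act in synaptic release and in the synthesis, packaging and modulation of neurotransmitters. They were chosen by name, as genes whose symbol in the probe annotation is on a list of 38, and all 38 were read by at least 1 probe set that names a single gene. They stand among 17118 genes measured in this way, and each gene is represented by its probe set of highest mean over the 4 arrays. RNA of whole N2 (wild-type) worms was measured on Affymetrix expression arrays on day 8 of adulthood, in 2 samples treated with rifampicin (RIF) and 2 samples treated with DMSO, the solvent control. RIF is an antibiotic that the study examined as an inhibitor of glycation, and the comparison asks which transcripts differ in worms given it. Both groups were kept in liquid medium on heat-killed *E. coli* OP50-AMP, with carbenicillin, amphotericin B and 0.6 mM FuDr, which blocks DNA synthesis and so keeps the adults from producing progeny, and both received food again on day 5. The array labels give no RIF dose. The tissue field of the labels speaks of *idr-1* RNAi on the RIF arrays and of control RNAi on the DMSO arrays. It was set aside, because every other label, the design text and the paper describe RIF and DMSO.

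At a synapse, vesicles filled with transmitter dock at the membrane, are primed, and fuse when calcium enters. Fusion is driven by SNARE proteins on vesicle and membrane, and proteins around them set when it occurs. Small clear vesicles carry acetylcholine, GABA, glutamate or monoamines, each with its own synthetic enzymes and vesicular transporter, while dense-core vesicles carry neuropeptides. In the worm, many of these genes were found through paralysed or uncoordinated (*unc*) mutants and through mutants resistant to inhibitors of cholinesterase (*ric*), and a Gq pathway opposed by a Go pathway sets the rate of acetylcholine release. Neurons are a small part of a whole worm, so a value in whole-worm RNA joins all cells that carry the transcript. Fewer such cells and less RNA per cell cannot be told apart in it.

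No synaptic gene passed the study's threshold, taken as an unadjusted p under 0.05 in limma together with a change of at least 2-fold. The count was 0 of 38 higher with RIF, where 1.27% of all genes passed, and 0 of 38 lower, where 1.55% passed. Without the fold requirement, 3 of 38 genes had an unadjusted p under 0.05, namely *snb-1*, *cpx-1* and *eat-4*, against 8.85% of all genes, and each of them averaged higher with RIF. None had an adjusted p under 0.05 in limma (Benjamini-Hochberg over all probe sets), a level that 4 of all genes reached, and the smallest adjusted p among the 38 was 0.540. None of the 38 changed by 2-fold or more. The methods' t-test and its Welch version keep the fold changes, so they could place none past the threshold. They gave 2 and 1 genes at an unadjusted p under 0.05, and the share of all genes at that p in these tests is not given here. Without RIF replicate 1, the log2 fold changes of *snb-1*, *cpx-1* and *eat-4* were 0.53, 0.47 and 0.45. With an array left out, some fold changes reached 2-fold in size, among them *ric-4* without RIF replicate 2 and *egl-21* without DMSO replicate 1. On the lower side, *tdc-1* did so without DMSO replicate 2. Each such fit leaves 1 array in a group, so no count past the threshold is drawn from it.

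The small differences lay mostly above 0. The RIF mean was above the DMSO mean for 30 of 38 genes, or 78.9%, against 55.7% of all genes, and the median log2 fold change (RIF minus DMSO) was 0.18, against 0.03 over all genes. Both RIF arrays read above both DMSO arrays for 18 genes, or 47.4%, where 22.9% of all genes did so. Both RIF arrays read below both DMSO arrays for 2 genes, *tom-1* and *tdc-1*, or 5.26%, where 16% of all genes did so. The groups overlapped for the other 18. The counts above 0 depend on where 0 is set. Centring of the arrays on ribosomal protein probe sets lowered every log2 fold change alike, which left 21 of 38 above 0 with a median of 0.02 for the synaptic genes and -0.13 for all genes, and the distance between those medians, 0.15, was the same with and without it. In size these differences were within replicate spread for most genes, since for 26 of 38 the larger gap between arrays of 1 group exceeded the difference between the groups. The fitted 95% interval lay wholly inside a 2-fold change in either direction for 24 genes, and for the other 14 a 2-fold change in at least 1 direction was not outside the interval. Among the 29 genes with a group mean above the background level described below, the interval lay inside for 16. For a gene read at background, a narrow interval does not show that its transcript was unchanged.

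**Figure D1:**
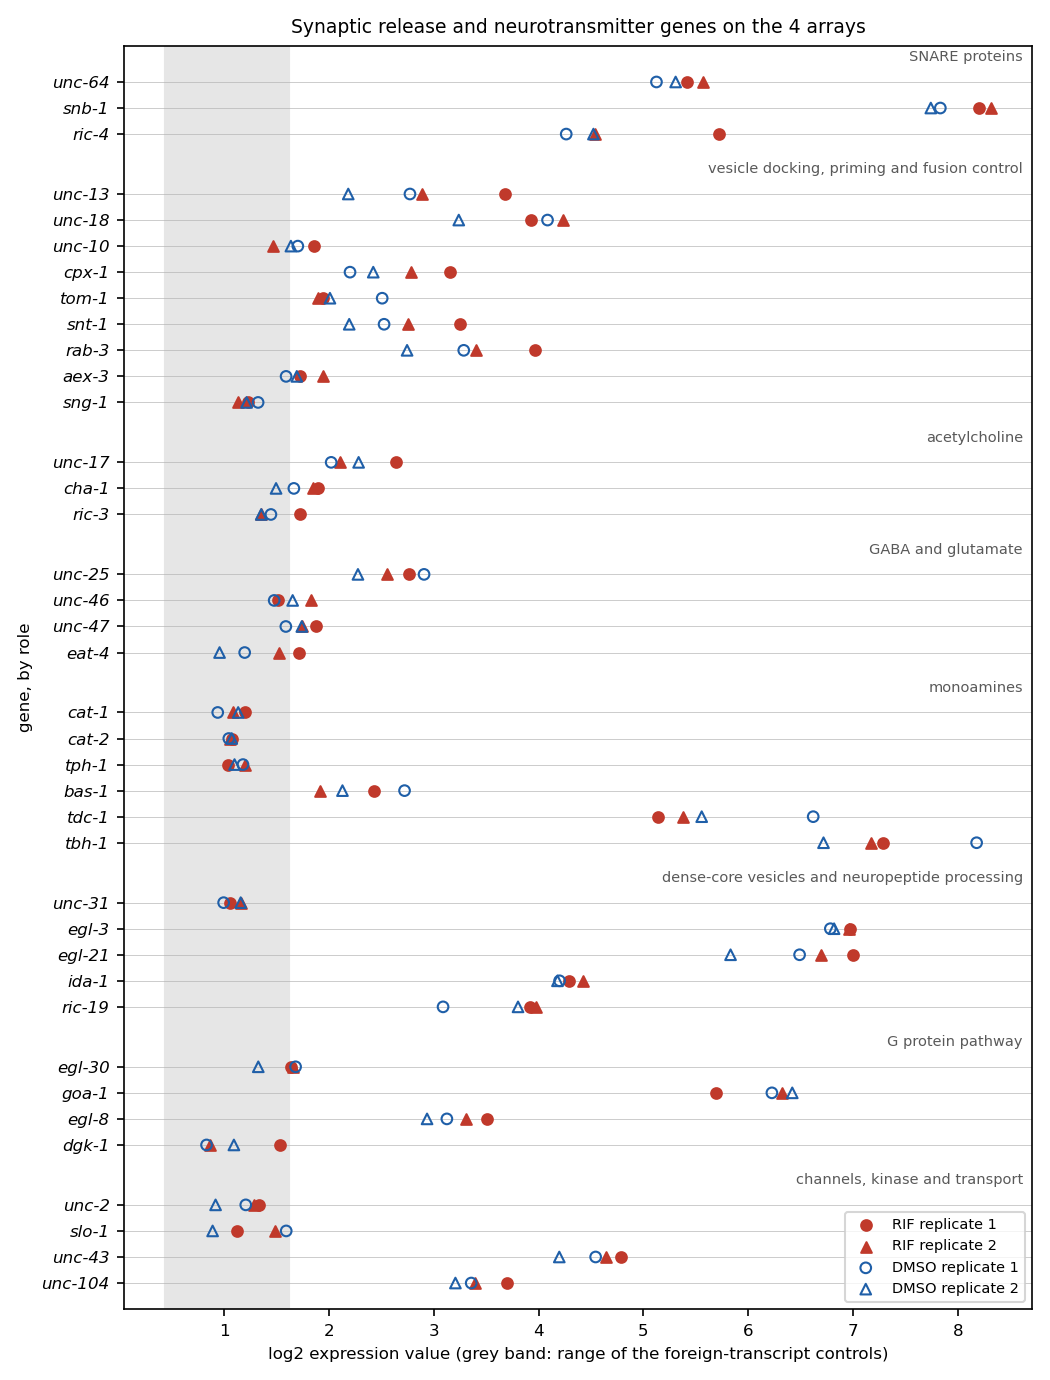
Log2 expression value (x axis) of each of the 38 genes (rows, ordered by role) on each array, with filled red symbols for RIF and open blue symbols for DMSO, circles for replicate 1 and triangles for replicate 2. The grey band, 0.44 to 1.62, is the range of control probe sets for transcripts foreign to the worm, and 9 genes have both group means inside it; values of different genes come from different probes and are not to be ranked against each other.

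The arrays set a floor on what can be read for some of these genes. The 8 control probe sets for transcripts foreign to the worm gave log2 values of 0.44 to 1.62, called the absent range below. Both group means lay in that range for 9 genes, *sng-1*, *ric-3*, *cat-1*, *cat-2*, *tph-1*, *unc-31*, *dgk-1*, *unc-2* and *slo-1*, so a difference in these is hard to measure. For 4 more, *cha-1*, *unc-46*, *eat-4* and *egl-30*, the DMSO mean alone lay in it, and the other 25 were above it in both groups. Over the 29 genes with at least 1 mean above the range, the median log2 fold change was 0.26, against -0.01 over the 9836 genes of all that meet the same condition. A filter of this kind passes a gene through whichever group is high.

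The SNARE proteins drive membrane fusion, and all 3 of their genes read higher on both RIF arrays than on both DMSO arrays, where 22.9% of all genes did so. *snb-1* encodes synaptobrevin, the SNARE of the vesicle. Its log2 values were 8.20 and 8.31 on the RIF arrays, against 7.83 and 7.74 on the DMSO arrays, so the arrays of each group lay close together and the groups did not overlap. The log2 fold change was 0.47 (standard error 0.15, 95% interval 0.07 to 0.87, unadjusted p = 0.0303, adjusted p = 0.540 from limma), or 1.39-fold, the smallest unadjusted p among the 38 genes. A second probe set read 7.42 and 7.72 with RIF, against 7.09 and 7.35 with DMSO, again without overlap, and gave 0.35 on the log2 fold change scale (adjusted p = 0.690 from limma). *unc-64*, which encodes syntaxin, the SNARE of the plasma membrane, read 5.42 and 5.57 with RIF, against 5.12 and 5.31 with DMSO, a gap between the groups of the same order as the gap between replicates. *ric-4* encodes SNAP-25, the other membrane SNARE. It read 5.72 and 4.53 with RIF, against 4.26 and 4.52 with DMSO, so its log2 fold change of 0.73 rested on RIF replicate 1 and was 0.14 without that array.

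The genes that dock and prime vesicles and control fusion had a median log2 fold change of 0.42, with 6 of 9 above 0. Both RIF arrays were the higher for 5 of 9 and the lower for 1, where 22.9% and 16% of all genes were so, and the groups overlapped for 3. *cpx-1* encodes complexin, which binds the assembled SNAREs and holds fusion back until calcium enters. It read 3.16 and 2.78 with RIF, against 2.20 and 2.42 with DMSO, with both RIF arrays the higher. Its log2 fold change was 0.66 (standard error 0.20, 95% interval 0.09 to 1.22, unadjusted p = 0.0315, adjusted p = 0.548 from limma), and only 1 probe set reads it. *snt-1* encodes synaptotagmin, the calcium sensor of the vesicle. It read 3.25 and 2.75 with RIF, against 2.53 and 2.19 with DMSO, a log2 fold change of 0.64 (standard error 0.25, 95% interval -0.04 to 1.33, unadjusted p = 0.0596, adjusted p = 0.611 from limma). In this gene RIF replicate 2 and DMSO replicate 1 lay near each other, and in its second probe set, with values of 2.83 and 1.91 for RIF and 1.97 and 1.69 for DMSO, the groups overlapped.

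*unc-13* and *rab-3* had large differences and shared that pattern. *unc-13*, which primes docked vesicles, read 3.68 and 2.89 with RIF, against 2.77 and 2.18 with DMSO, a log2 fold change of 0.81 (95% interval -0.21 to 1.82) that was the largest above 0 among the 38. Its other 2 probe sets gave 0.77 and 0.68. *rab-3*, the vesicle GTPase, read 3.97 and 3.40 with RIF, against 3.29 and 2.75 with DMSO, a log2 fold change of 0.67 (95% interval -0.17 to 1.51). In both genes the higher RIF array was replicate 1 and the lower DMSO array was replicate 2, and the nearest pair, RIF replicate 2 and DMSO replicate 1, was close. Without RIF replicate 1 the log2 fold change was 0.41 for *unc-13* and 0.39 for *rab-3*.

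The remaining genes of the group differed little or pointed either way. *unc-18*, whose product binds syntaxin, read 3.93 and 4.24 with RIF, against 4.09 and 3.24 with DMSO, where only DMSO replicate 2 stood low, and its second probe set gave 0.02 on the log2 fold change scale. *aex-3*, which encodes an exchange factor for RAB-3, read 1.72 and 1.94 with RIF, against 1.59 and 1.69 with DMSO. *unc-10*, which encodes the active zone protein RIM, read 1.86 and 1.46 with RIF, against 1.70 and 1.64 with DMSO, with the DMSO values between the RIF ones. *tom-1* encodes tomosyn, an inhibitor of priming, and was 1 of the 2 genes with both RIF arrays the lower, at 1.94 and 1.90, against 2.51 and 2.01 with DMSO, where only DMSO replicate 1 stood apart. *sng-1*, which encodes the vesicle protein synaptogyrin, stayed in the absent range on every array, with 1.23 and 1.13 for RIF and 1.32 and 1.21 for DMSO.

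**Figure D2:**
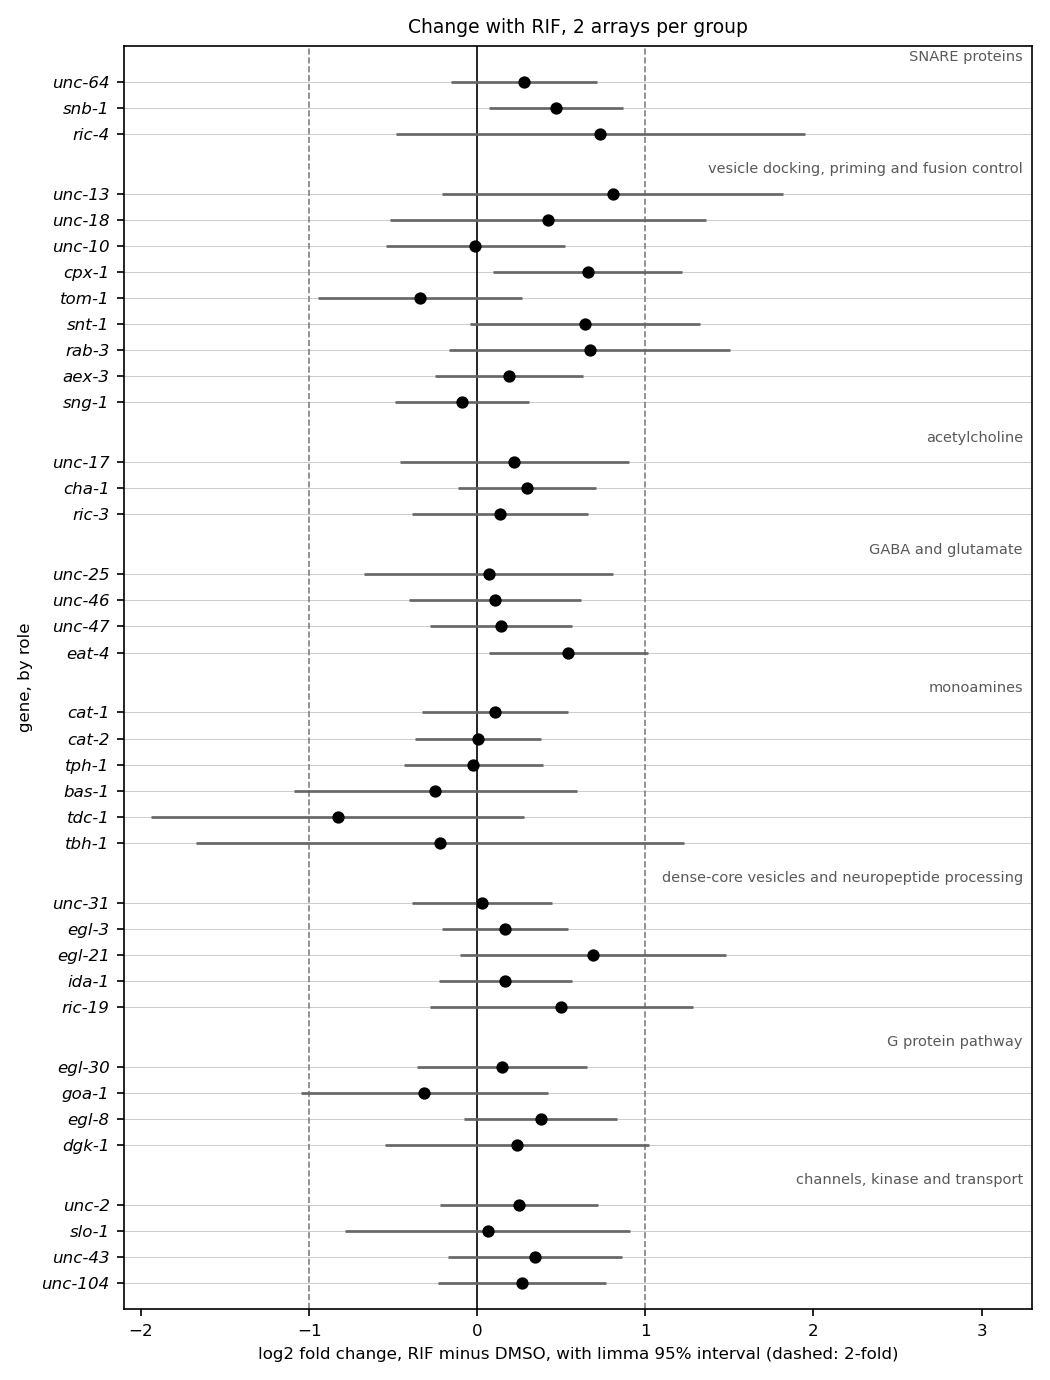
Log2 fold change, RIF minus DMSO (x axis), of each of the 38 genes (rows, by role) from 2 arrays per group, with points for the estimates and bars for limma's 95% intervals; dashed lines mark a 2-fold change. Points run from -0.83 for *tdc-1* to 0.81 for *unc-13*, all inside the dashed lines, and only the intervals of *snb-1*, *cpx-1* and *eat-4* lie wholly on 1 side of 0.

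For acetylcholine, the main excitatory transmitter at the worm's body muscle, all 3 genes averaged higher with RIF by small amounts. *cha-1*, choline acetyltransferase, read 1.90 and 1.85 with RIF, against 1.67 and 1.50 with DMSO, without overlap but at the upper edge of the absent range, and its second probe set had a log2 fold change of -0.11. *unc-17*, the vesicular acetylcholine transporter, read 2.64 and 2.11 with RIF, against 2.02 and 2.28 with DMSO, and the groups overlapped. *cha-1* and *unc-17* overlap in the RefSeq annotation, so some probes could read both. *ric-3*, a chaperone of acetylcholine receptors, read 1.72 and 1.35 with RIF, against 1.45 and 1.35 with DMSO, where RIF replicate 1 alone was higher.

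Among genes of GABA and glutamate, 1 of 4 had an unadjusted p under 0.05. *eat-4*, the vesicular glutamate transporter, read 1.71 and 1.52 with RIF, against 1.20 and 0.96 with DMSO. Its log2 fold change was 0.54 (standard error 0.17, 95% interval 0.07 to 1.02, unadjusted p = 0.0336, adjusted p = 0.554 from limma), and the groups did not overlap. The second probe set, at 1.21 and 1.18 with RIF and 0.89 and 0.78 with DMSO, did not overlap either, with a log2 fold change of 0.36. All but 1 of these 8 values are within the absent range, so the size of this difference is measured close to background. The genes of GABA, the main inhibitory transmitter, were near 0 with overlapping groups. *unc-25*, which makes GABA, read 2.77 and 2.55 with RIF, against 2.91 and 2.28 with DMSO. *unc-47*, its vesicular transporter, had a log2 fold change of 0.14, and *unc-46*, which sorts that transporter to vesicles, one of 0.10, with all 8 values of the pair between 1.48 and 1.87. Whether *eat-4* differed from the GABA genes was not tested.

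The monoamine genes were the only role with a median below 0, at -0.12, with 2 of 6 above 0. The genes for tyramine and octopamine carried the largest gaps in this role. *tdc-1*, the tyrosine decarboxylase that makes tyramine, read 5.14 and 5.38 with RIF, against 6.62 and 5.56 with DMSO. Both RIF arrays were lower, but the gap to DMSO replicate 2 was small, and the log2 fold change of -0.83 (95% interval -1.94 to 0.28, unadjusted p = 0.107), the lowest of the 38 genes, was -0.30 without DMSO replicate 1. The second *tdc-1* probe set, at 2.54 and 2.69 with RIF and 2.98 and 2.93 with DMSO, gave -0.34 without overlap, while the third, in the absent range, gave 0.33. *tbh-1*, the tyramine beta-hydroxylase that turns tyramine into octopamine, read 7.29 and 7.17 with RIF, against 8.18 and 6.72 with DMSO. Its RIF arrays lay between the 2 DMSO arrays, whose gap of 1.46 was the widest within a group among the 38 genes. For both genes DMSO replicate 1 was the highest array.

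The genes for dopamine and serotonin gave little to compare. *bas-1*, the decarboxylase shared by dopamine and serotonin synthesis, read 2.43 and 1.92 with RIF, against 2.72 and 2.13 with DMSO, and the groups overlapped. *cat-1*, the vesicular monoamine transporter, *cat-2*, the tyrosine hydroxylase of dopamine synthesis, and *tph-1*, the tryptophan hydroxylase of serotonin synthesis, stayed in the absent range on all arrays. Their log2 fold changes were 0.10, 0.01 and -0.02, and the 12 values of these 3 genes ran between 0.94 and 1.20. Values in this range do not show that expression was equal.

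For dense-core vesicles and neuropeptide processing, 5 of 5 genes averaged higher with RIF, where 55.7% of all genes did. Both RIF arrays read above both DMSO arrays for 4 of 5, where 22.9% of all genes did so. *egl-21*, a carboxypeptidase that trims neuropeptide precursors, read 7.004 and 6.69 with RIF, against 6.49 and 5.83 with DMSO. The log2 fold change was 0.69 (standard error 0.29, 95% interval -0.10 to 1.48, unadjusted p = 0.0736, adjusted p = 0.638 from limma), with DMSO replicate 2 the lowest array, and it was 0.36 without that array. *egl-3*, the proprotein convertase that cuts the precursors before EGL-21 acts, read 6.97 and 6.96 with RIF, against 6.78 and 6.82 with DMSO, a small gap between tight groups, while its second probe set gave -0.27 with overlapping groups. *ida-1*, a protein of the dense-core vesicle membrane, read 4.29 and 4.43 with RIF, against 4.20 and 4.18 with DMSO. *ric-19*, which acts in the maturation of these vesicles, read 3.92 and 3.97 with RIF, against 3.09 and 3.80 with DMSO, where DMSO replicate 1 alone stood low. *unc-31*, the CAPS protein that readies dense-core vesicles for release, was in the absent range, at 1.05 and 1.16 for RIF and 0.995 and 1.16 for DMSO.

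In the G protein pathway, the effector of the stimulating branch had the smallest p. *egl-8*, the phospholipase C-beta that Gq activates, read 3.50 and 3.31 with RIF, against 3.12 and 2.94 with DMSO. Its log2 fold change was 0.38 (standard error 0.17, 95% interval -0.08 to 0.83, unadjusted p = 0.0834, adjusted p = 0.644 from limma), whereas its second probe set gave 0.06 with overlap. *egl-30*, the Gq alpha subunit itself, read 1.64 and 1.66 with RIF, against 1.68 and 1.33 with DMSO. *goa-1*, the Go alpha subunit that opposes it, read 5.69 and 6.33 with RIF, against 6.23 and 6.42 with DMSO, a log2 fold change of -0.31 with overlap, and its other 2 probe sets gave 0.29 and 0.10. *dgk-1*, the diacylglycerol kinase of the inhibiting branch, was in the absent range on all arrays, with 1.54 and 0.87 for RIF and 0.83 and 1.09 for DMSO.

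The channels, the kinase and the transport motor were all above 0 on the log2 fold change scale, with a median of 0.26. *unc-43*, the calcium/calmodulin-dependent kinase II, read 4.78 and 4.64 with RIF, against 4.54 and 4.20 with DMSO, a log2 fold change of 0.34. It is read by 9 probe sets, the most of the 38 genes, which gave values from -0.11 to 0.90. *unc-104*, the kinesin that carries synaptic vesicle precursors along axons, read 3.70 and 3.39 with RIF, against 3.36 and 3.21 with DMSO, with RIF replicate 2 and DMSO replicate 1 nearly equal. *unc-2*, the calcium channel of the terminal, and *slo-1*, the potassium channel that limits release, were in the absent range, with log2 fold changes of 0.25 and 0.06.

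**Figure D3:**
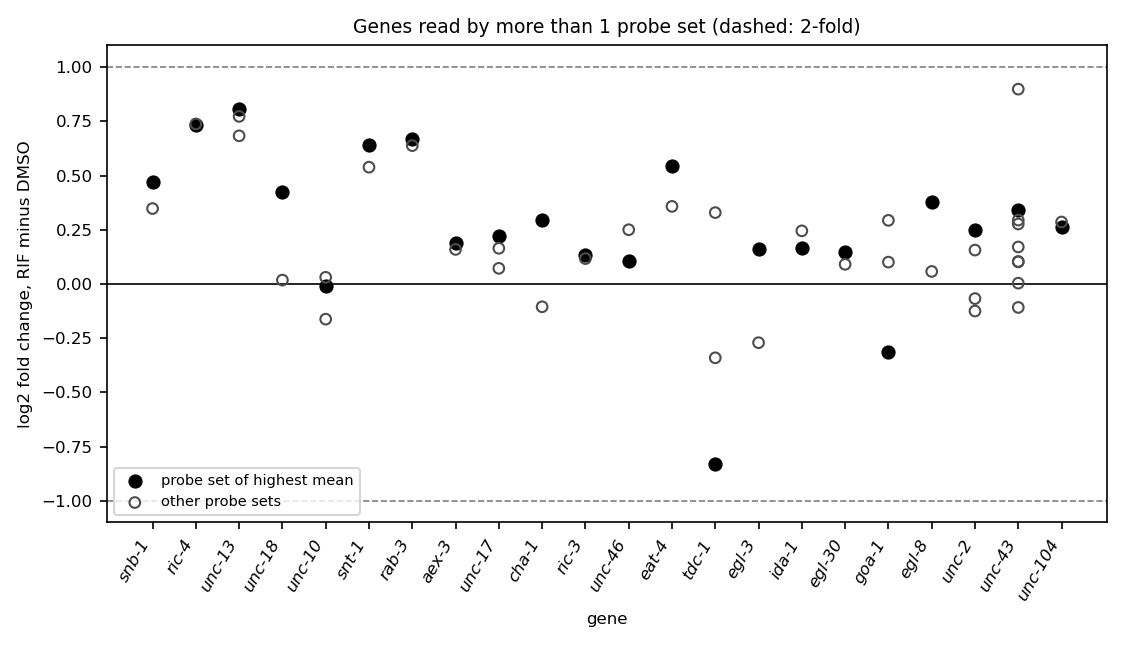
Log2 fold change, RIF minus DMSO (y axis), of every single-gene probe set of the 22 genes read by more than 1 of them (x axis), with filled points for the probe set of highest mean and open points for the others. All probe sets lie above 0 for 15 genes, and they fall on both sides of 0 for 7, most widely for *tdc-1*.

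The 38 genes were read by 74 probe sets, and the choice of probe set did not produce or remove a call, since none of the 74 passed the threshold and 3 had an unadjusted p under 0.05. Of the 22 genes with more than 1 probe set, 15 had all of theirs above 0 and none had all below 0. In the other 7 genes, *unc-10*, *cha-1*, *tdc-1*, *egl-3*, *goa-1*, *unc-2* and *unc-43*, the probe sets pointed in different directions. Probe sets of 1 gene read the same RNA samples and are not replicates. For 18 of the 38 genes the probe set used, as for *snb-1*, *snt-1* and *eat-4*, has an ending by which Affymetrix marks probes that can also match other transcripts.

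The 4 arrays did not contribute evenly to these differences. RIF replicate 1 was the highest array for 20 of the 38 genes and RIF replicate 2 for 9, while DMSO replicate 1 was the highest for 8 and DMSO replicate 2 for 1. The lowest array was RIF replicate 1 for 3 genes, RIF replicate 2 for 5, DMSO replicate 1 for 13 and DMSO replicate 2 for 17. In the 4 pairings of a RIF with a DMSO array, the median difference over the 38 genes was 0.21 for RIF replicate 1 minus DMSO replicate 1, 0.34 for RIF replicate 1 minus DMSO replicate 2, 0.12 for RIF replicate 2 minus DMSO replicate 1 and 0.22 for RIF replicate 2 minus DMSO replicate 2. The median of replicate 1 minus replicate 2 over the 38 genes was 0.10 in each group. RNA quality also moved with the arrays. Over 5 control transcripts read at both ends, the median 5′ minus 3′ difference on the log2 scale was -1.13 and -1.18 in the RIF arrays, against -0.84 and -2.002 in the DMSO arrays, with the lowest value in DMSO replicate 2, the array that was lowest for 17 of the synaptic genes. Its part in the result was not tested. Over all probe sets the RIF arrays correlated at 0.981, the DMSO arrays at 0.970, and a RIF with a DMSO array at 0.961 to 0.972. These are bulk RNA samples labelled as separate biological replicates, and their number limits the precision of every value here.

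Genes that act next to the 38 were counted in the same way, from lists drawn from general knowledge. Of 46 measured transmitter receptors (48 listed), 0 passed the threshold and 0 had an unadjusted p under 0.05 in limma. Of all genes, 1.27% passed higher, 1.55% passed lower and 8.85% had such a p. Of the receptors 37 were above 0, or 80.4%, against 55.7% of all genes. Their median log2 fold change was 0.16, with both means in the absent range for 26. Both RIF arrays were the higher for 19, or 41.3%, and the lower for 3, or 6.52%, where 22.9% and 16% of all genes were so. The 2 of smallest p were glutamate-gated chloride channels. *glc-1* read 6.68 and 5.19 with RIF, against 4.52 and 4.63 with DMSO, and *glc-4* read 2.88 and 2.14 with RIF, against 1.96 and 1.55 with DMSO (adjusted p = 0.619 and 0.642 from limma). In both, RIF replicate 1 was well above the other RIF array. Of 23 genes of transmitter clearance and vesicle recycling, 0 passed and 0 had an unadjusted p under 0.05 in limma, with a median of 0.02. In this list 14 were above 0, or 60.9%, and both RIF arrays were the higher for 2, or 8.70%, and the lower for 1, or 4.35%. There *amx-1*, listed as a member of the amine oxidase family, read 3.84 and 3.89 with RIF, against 4.15 and 4.58 with DMSO. Whether its product clears transmitter was not tested, and *amx-2*, of the same family, had a log2 fold change of -0.08 with overlapping groups. *glt-5*, a glutamate transporter, had a log2 fold change of 0.66 with overlapping groups.

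Of 45 measured genes of other release, modulation and transport steps (48 listed), 1 was higher past the threshold and 0 were lower, with a median of 0.16. Of all genes, 1.27% were higher past the threshold and 1.55% lower. An unadjusted p under 0.05 in limma was found for 5 of the 45, all higher with RIF, where 8.85% of all genes had one in either direction. The gene past the threshold was *cat-4*, GTP cyclohydrolase I, which makes the cofactor used by the hydroxylases of dopamine and serotonin synthesis. *cat-4* read 6.72 and 6.81 with RIF, against 5.15 and 5.80 with DMSO, with both RIF arrays well above. *cat-4* rose by 1.29 on the log2 scale in the limma fit across all probe sets (standard error 0.27, unadjusted p = 0.00806, adjusted p = 0.467 from limma). *cat-4* missed the threshold in the methods' t-test and without RIF replicate 1, RIF replicate 2 or DMSO replicate 1, where its log2 fold change was 1.34, 1.24 and 0.96. The other 4 genes at an unadjusted p under 0.05, named after their values were seen, were *gpb-2*, a G protein beta subunit, with a log2 fold change of 0.89, *jip-1*, a scaffold of kinesin transport, with 0.64, *kin-2*, the regulatory subunit of protein kinase A, with 0.62, and *aex-6*, the RAB-27 GTPase, with 0.51. The hydroxylases that use the cofactor, *cat-2* and *tph-1*, lay in the absent range in both groups.

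**Figure D4:**
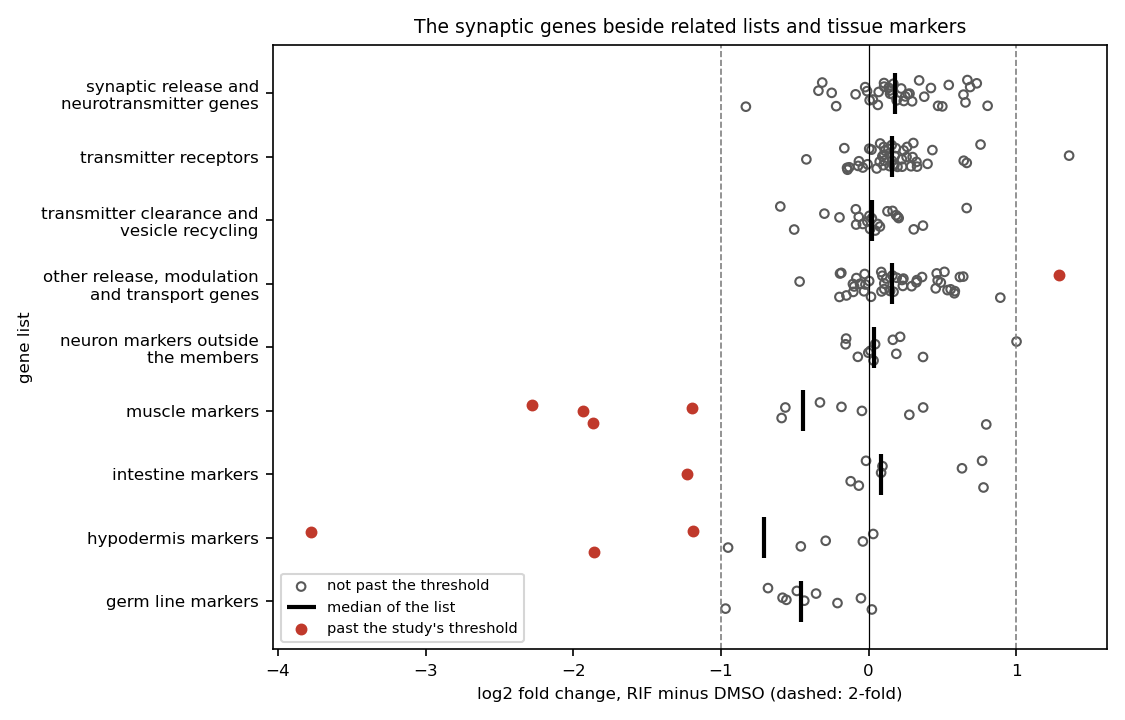
Log2 fold change, RIF minus DMSO (x axis), of each measured gene of the 38 synaptic genes and of 8 other lists (rows), with red points past the study's threshold, open points for the rest, and a black bar for the median of each list; points are spread vertically only to separate them. The synaptic list has a median of 0.18 and no red point, against 4 of 12 red points below 0 among muscle markers and 3 of 8 among hypodermis markers.

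Markers of cell types show what else moved between the groups. Both means lay above the absent range for 9 of 12 neuron markers outside the 38 genes. Among them was *unc-119*, a pan-neuronal gene, at 3.64 and 3.55 with RIF, against 3.27 and 3.55 with DMSO. *rgef-1*, another pan-neuronal gene, lay in the absent range in both groups, as did *unc-33* and *egl-46*. Whole-worm values do not show which cells a transcript came from, so how much of these levels is neuronal was not tested. None of the 12 passed the threshold and 0 had an unadjusted p under 0.05 in limma. Their median was 0.04, with 8 above 0 and 4 below it. The smallest p was that of *mec-17*, a tubulin acetyltransferase of touch neurons (log2 fold change 1.002, 95% interval -0.42 to 2.42), followed by *unc-73*, a guidance factor of axons, with 0.37. *mec-17* read 4.52 and 3.24 with RIF, against 3.20 and 2.57 with DMSO, so RIF replicate 1 stood apart. *mec-7* and *mec-12* had log2 fold changes of 0.01 and -0.07. Summed on the linear scale, the 12 markers gave 185 and 180 with RIF and 190 and 168 with DMSO, and the 38 synaptic genes gave 1103 and 1077 with RIF and 1123 and 840 with DMSO, sums that a few bright probe sets dominate.

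Some markers of other tissues passed the threshold. Of 12 muscle markers, 4 fell past the threshold, where 1.55% of all genes did, and the median was -0.45. The 4 were *unc-27*, a troponin I, with a log2 fold change of -2.28, *unc-15*, paramyosin, with -1.93, *unc-54*, a body wall myosin, with -1.87, and *myo-3*, another myosin, with -1.20. The list did not move as a whole, since 9 of the 12 were below 0 and 3 were above it. Those above 0 were *tnc-2* with 0.80, *lev-11* with 0.37 and *tnt-4* with 0.28. The summed linear level of the list was 349 and 233 with RIF, against 555 and 558 with DMSO. Of 8 hypodermis markers, 7 were below 0 and 1 above it, with a median of -0.71, and 3 collagen genes fell past the threshold. These were *col-19* with -3.77, *dpy-13* with -1.86 and *sqt-3* with -1.19, and the summed level was 641 and 328 with RIF, against 1605 and 1042 with DMSO. These calls were not equally stable, since *unc-15* and *unc-27* alone of the 7 stayed past the threshold in the methods' t-test. Their size also depended on the arrays kept. Without RIF replicate 2 the log2 fold change was -3.01 for *col-19*, -1.14 for *dpy-13*, -1.22 for *unc-54* and -0.70 for *sqt-3*. Without DMSO replicate 2 it was -2.19 for *dpy-13*, -2.24 for *unc-54* and -1.22 for *sqt-3*.

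Of 10 germ line markers, 0 passed the threshold in limma and 1, *pgl-3*, a component of germ granules, had an unadjusted p under 0.05. Its log2 fold change was -0.97, that of *pgl-1*, a related component, was -0.68, and 9 of the 10 were below 0, with a median of -0.46. The summed linear level of the germ line list was 865 and 1197 with RIF, against 1398 and 1369 with DMSO. Of 9 intestine markers, 1 fell past the threshold and 0 were higher past it, and the median was 0.08. Both RIF arrays were the higher for 4 and the lower for 1, where 22.9% and 16% of all genes were so. The one that fell was *vha-6*, a proton pump subunit, with -1.23, and it missed the threshold without RIF replicate 1 (-1.42), RIF replicate 2 (-1.05) or DMSO replicate 1 (-0.72). The smallest p of the list was that of *pept-1*, a peptide transporter named after its values were seen, with a log2 fold change of 0.77 (unadjusted p = 0.0150, adjusted p = 0.501 from limma). The summed linear level of the intestine list was 552 and 625 with RIF, against 479 and 609 with DMSO. The part of these markers in the values of the synaptic genes was not tested.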

How the data were processed

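The deposited log2 values were taken unchanged. The authors ran RMA in Affymetrix Expression Console per the submitters' processing notes, and name GeneSpring GX in their methods. The log base is not given in the sources used here and was taken as 2. After 77 control probe sets were left out, 22548 were compared (RIF minus DMSO, two-sided) with limma 3.58.1 under R 4.3.3, by lmFit and eBayes with no trend and no filter on level, and with Benjamini-Hochberg adjustment over all of them. The procedure was tested on simulated data. Symbols come from the platform annotation and 20766 probe sets name 1 gene. The members and lists were chosen with earlier results of these data known. By rule, every member was named, with full statistics for the 6 of smallest unadjusted p as none passed the threshold. For other lists up to 4 genes past it were named, or else the 2 of smallest p. Alternatives were other tests, a replicate block, each array left out, quantile, median and ribosomal centring, a level filter, probe sets without shared endings and the mean over probe sets. Runs on called genes of other lists were added after seeing the data. Leaving out an array assumes that the remaining one of its group varies as the other group's do. Sequences and coordinates were not used here.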

Additional observations from a re-analysis of the deposited data

How the results depend on the processing

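None of the 38 genes passed the threshold, in either direction, in limma with an intensity trend and robust prior, in the methods' t-test or its Welch version, with the replicate block (0 higher, 0 lower, median log2 fold change 0.18), or under any other scaling, filter or probe set rule run. The other tests, the replicate block and the level filter leave the fold changes as they are, all under 2-fold in size. Their counts of 0 were therefore fixed beforehand. With each array left out in turn, log2 fold changes that reached 2-fold in size included *ric-4* without RIF replicate 2 (1.32) and *egl-21* without DMSO replicate 1 (1.02). On the lower side, *tdc-1* did so without DMSO replicate 2 (-1.36). These fits leave 1 array in a group, so no count past the threshold is drawn from them. In the main fit with no fold requirement, the count higher was 3. The genes at an unadjusted p under 0.05 in limma numbered 5 with the replicate block, 0 with ribosomal centring and 0 above the level filter. The share of all genes at that p in these settings is not given here, so the counts have no background to be read against. The replicate numbers come from the array titles, which do not say whether same-numbered samples were prepared together. The replicate 1 minus replicate 2 differences of the 2 groups correlated with r = 0.10 over all probe sets and -0.03 over the synaptic genes. With 1 such difference per group, these values cannot decide it.

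The median over the genes stayed between 0.02 and 0.26 in every setting. The low end came from centring on ribosomal protein probe sets, which moved the median of all genes by -0.16, to -0.13, with 21 of 38 synaptic genes above 0. Relative to all genes the synaptic median was then 0.15, as without it, and over all settings it ran from 0.09 to 0.28. Median and ribosomal centring shift every gene alike, and the other tests and the replicate block keep the fold changes. Those settings could not move this distance, so only the remaining ones bear on it.

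In 20 genes the sign never changed. Under ribosomal centring it changed for *cat-1* (-0.054), *cat-2* (-0.15), *egl-30* (-0.013), *ric-3* (-0.023), *slo-1* (-0.096), *unc-25* (-0.090), *unc-31* (-0.13), *unc-46* (-0.054) and *unc-47* (-0.016). Quantile normalization turned *cat-2* (-0.043) and *unc-31* (-0.021), median centring turned *cat-2* (-0.051) and *unc-31* (-0.030), the mean over probe sets turned *egl-3* (-0.054) and *goa-1* (0.027), and probe sets without shared endings turned *unc-10* (0.031). With each array left out in turn, values crossing 0 ran over -0.55 to 0.046 for *bas-1*, -0.0070 to 0.021 for *cat-2*, -0.097 to 0.57 for *dgk-1*, -0.032 to 0.32 for *egl-30*, -0.63 to 0.0033 for *goa-1*, -0.051 to 0.32 for *ric-3*, -0.29 to 0.41 for *slo-1*, -0.95 to 0.51 for *tbh-1*, -0.10 to 0.058 for *tph-1*, -0.21 to 0.19 for *unc-10*, -0.046 to 0.49 for *unc-17*, -0.0012 to 0.85 for *unc-18*, -0.25 to 0.38 for *unc-25*, -0.053 to 0.11 for *unc-31* and -0.054 to 0.26 for *unc-46*. The cause was not tested. The calls of *unc-54*, *myo-3*, *col-19*, *dpy-13*, *sqt-3* and *vha-6* were lost in the methods' t-test, and *unc-27* alone of the 9 called genes of other lists passed in all settings.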
